A study of Mus musculus with 9 samples.

Results

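The mitochondrial respiratory chain and ATP synthase genes were examined in mouse bone marrow-derived macrophages (BMDMs), which are macrophages grown from marrow progenitors in M-CSF. The members were all genes whose symbol in the array's annotation starts with Ndufa, Ndufb, Ndufc, Ndufs, Ndufv, Uqcr, Cox4i, Cox5, Cox6, Cox7, Cox8 or Atp5. This gave 86 of the 18193 genes that had a probe set of their own, each read from its brightest such probe set. A further 8 matching symbols, Ndufa11, Ndufa11b, Ndufab1-ps, Ndufb4b, Ndufb4c, Ndufs5-ps, Ndufs6 and Ndufs6b, had only probe sets shared with other genes and were not read.

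The 9 arrays fell into 3 groups of 3. All cells came from BALB/c mice aged 8 to 10 weeks, were differentiated for 7 days and were kept overnight in 1% serum with M-CSF. Untreated BMDMs had no addition named in their labels. TNC + vehicle BMDMs were exposed for 6 h to recombinant tenascin C (TNC) at 2 µg/ml, after 1 h in 0.1% DMSO. TNC is a matrix glycoprotein that can signal through Toll-like receptor 4 (TLR4). TNC + TLR4i BMDMs received 3 µM TAK-242, a small-molecule inhibitor of TLR4, for 1 h before the same TNC. No group had the vehicle or the inhibitor alone, so the first contrast holds TNC with vehicle and cannot separate them. The 3 samples of each group are labelled as biological replicates, with no word on whether different mice were used, so p-values measure the spread between these samples.

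The respiratory chain sits in the inner mitochondrial membrane. Complex I takes electrons from NADH, complex III passes them from ubiquinol to cytochrome c, and complex IV hands them to oxygen, and the proton gradient built on the way drives ATP synthase. Most subunits are encoded in the nucleus, and the catalytic cores of complexes I, III and IV also need subunits made from mitochondrial DNA. Macrophages activated through TLR4 are known for a shift from respiration towards glycolysis.

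Values are log2 RMA signals, on which a difference of 1 is a doubling. A gene passed where limma gave an adjusted p under 0.05 over all probe sets (two-sided), and fold changes of at least 1.5 were counted beside that. The macrophage markers were bright, and the summed linear signal of 7 of them lay between 61710 and 67590 in all arrays. Among these 7, 1 rose and 1 fell with TNC, and 2 rose and 1 fell with the inhibitor. The sum of 8 fibroblast markers ran from 13980 to 18140 and that of 7 neutrophil markers from 969.9 to 1728, both highest in an untreated array. Of 10 endothelial markers, 3 passed with TNC + vehicle against untreated, all higher (Kdr, Eng and Cdh5), where 12.1% of all genes rose. All 10 had a positive difference. Their summed signal was 1325 to 1334 in untreated, 2014 to 2367 in TNC + vehicle and 1209 to 1265 in TNC + TLR4i arrays. TNC + vehicle replicate 1 stood apart, with Pecam1 at 7.45 against 6.43 and 6.42 in the other 2 arrays of its group. The 3' minus 5' signal of the actin control, a sign of RNA quality, ranged over 0.20 to 0.22 in the TNC + vehicle group. It reached 0.29 to 0.32 in untreated BMDMs, and with TNC + TLR4i it spanned 0.30 to 0.37. The same measure of the Gapdh control was -0.35 to -0.33 in untreated, -0.33 to -0.30 in TNC + vehicle and -0.32 to -0.26 in TNC + TLR4i arrays. By that control, the TNC + vehicle arrays overlapped with both other groups. The part of these shifts in the results was not tested.

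The members' mean signal ran from 5.80 to 13.39 with a median of 11.00, against 7.25 over all genes, and 63 members (73.3%) had a mean of at least 10, against 12.6% of all genes. Only Cox7b2, Ndufb4 and Cox8b lay under the median of all probe sets, 6.72. The median standard deviation within a group over the members was 0.05.

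Against all genes, which had a lower median signal, the respiratory chain genes passed with TNC about as often, with more falls and fewer rises. At a mean signal of 11 or more, members passed less often: 31 of 43 members did not pass, against 444 of 956 genes. There, 12 members fell and 0 rose, against 328 and 184 of those genes. In TNC + vehicle against untreated, 62 of 86 members (72.1%, against 71.9% of all genes) did not pass, 18 fell and 6 rose, with a median log2 difference of -0.07 against 0.01 over all genes. Those 18 were 20.9% of the members, where 16.0% of all genes fell, and the 6 were 6.98%, where 12.1% of all genes rose. At 1.5-fold, 1 member (Ndufa6) fell and 0 rose, against 4.05% and 3.74% of all genes in these directions, and at an unadjusted p under 0.05 the limma fit gave 29 lower (33.7%) and 12 higher (14%) members, against 20.8% and 17.8% of all genes. The median size of the difference, without its sign, was 0.13 in members and 0.12 in all genes. The 2 groups did not overlap in 55 members (64%), against 42.3% of all genes. This share rose with signal: from a mean signal of 11 upward it was 31 of 43 members and 744 of 956 genes. The 95% interval of the difference lay inside 1.5-fold, in either direction, for 83 members, all but Ndufa6, Atp5g2 and Ndufb1.

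The TLR4 inhibitor gave the opposite picture against the same TNC + vehicle arrays. With TNC + TLR4i, 22 members rose (25.6%, against 17.1% of all genes) and 7 fell (8.14%, against 11.4%), while 57 did not pass. The median difference was 0.09 for the members and 0.002 for all genes. At 1.5-fold, Ndufa6 rose and Ndufb1 fell, 1 member each way, where 4.25% of all genes rose and 4.05% fell. The groups did not overlap in 53 members (61.6%), against 42.2% of all genes. From a mean signal of 11 upward it was 31 of 43 members and 739 of 956 genes. In that range 14 of 43 members rose and 0 fell, against 349 and 176 of 956 genes. Both contrasts use the TNC + vehicle arrays, so their opposite signs are given side by side and are not independent of each other.

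No member passed between TNC + TLR4i and untreated BMDMs. With limma, 0 members rose and 0 fell, where 0.297% of all genes rose and 0.506% fell, and 0 passed in a fit over all 9 arrays or with trend and robust settings. At an unadjusted p under 0.05, 1 member (1.16%, against 4.83% of all genes) was higher and 0 were lower (against 4.63%). That member, Ndufaf7, had the lowest adjusted p (0.408). Groups did not overlap in 10 members (11.6%), against 15.2% of all genes, and the 95% interval lay inside 1.5-fold for all 86. The median interval reached 0.14 to either side, so a difference within that range could not be told from 0 in a typical member.

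**Figure D1:**
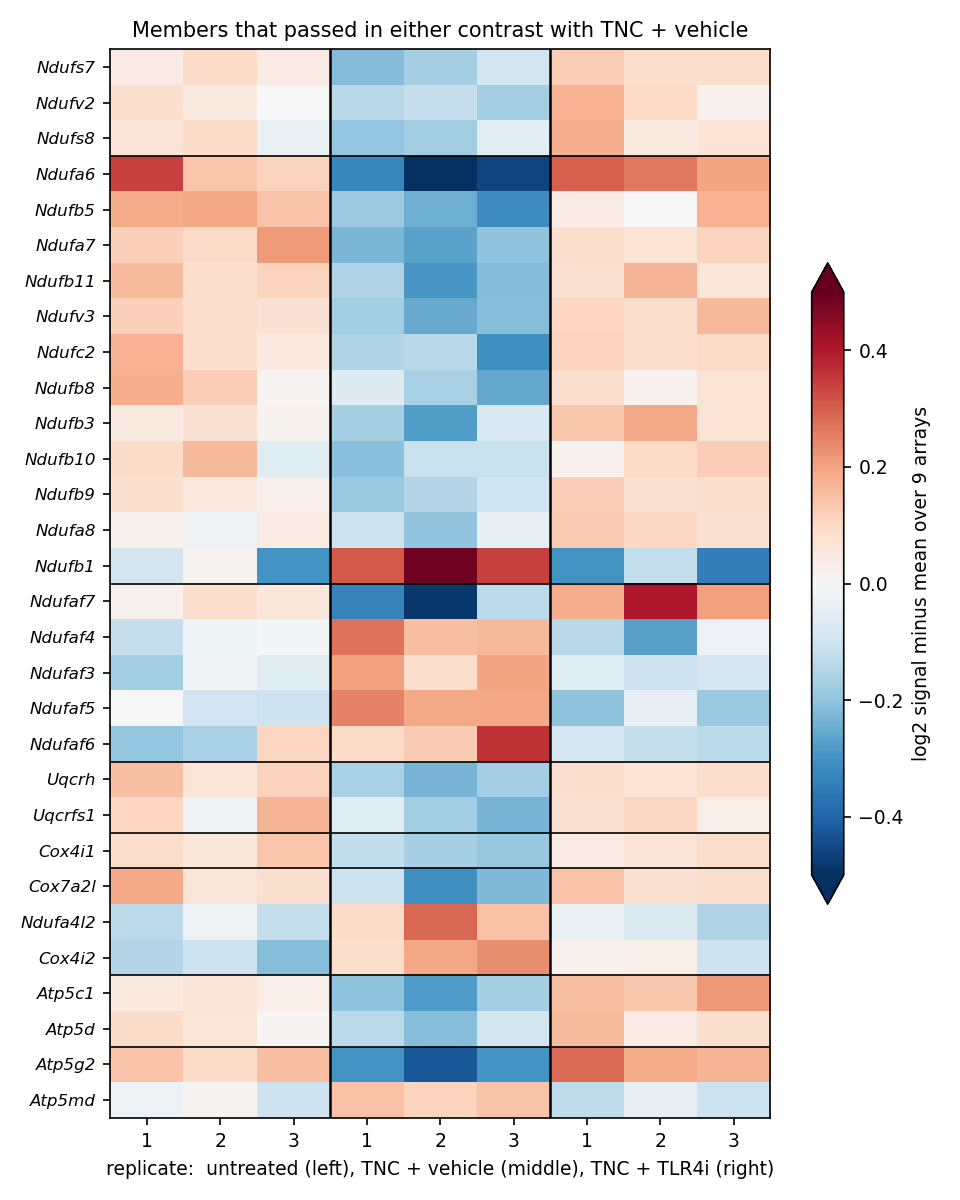
Log2 signal minus the mean over the 9 arrays for the 30 members that passed in TNC + vehicle against untreated or in TNC + TLR4i against TNC + vehicle, with arrays in columns and genes in rows grouped by role (lines); colour runs from -0.5 (blue) to 0.5 (red), and 1 value lies beyond it. Most rows are lower in the 3 TNC + vehicle arrays, and Ndufb1, most assembly factors, Ndufa4l2, Cox4i2 and Atp5md are higher there.

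The signal level of the members bears on these counts. Among all genes, larger shares passed in the bright bands of signal than in the dimmest, and the medians of bright genes were below 0 with TNC. In the band of mean signal from 11 to 12, 36.5% of 613 genes fell with TNC, against 6 of 25 members (24%). From 10 to 11 the shares were 33.9% of genes and 20% of members, and from 12 upward 30.3% and 33.3%. The median difference of all genes in these 3 bands, from dim to bright, was -0.07, -0.11 and -0.08, and that of the members was -0.07, -0.14 and -0.11. In TNC + TLR4i against TNC + vehicle, 39.6% of genes and 32% of members rose in the band from 11 to 12. From 12 upward 30.9% of genes and 33.3% of members rose. In the opposite direction the members were fewer. In the 3 bands from 10 upward, 0 members rose with TNC, against 22.7%, 21.9% and 14.6% of genes, and 5%, 0% and 0% of members fell with the inhibitor, against 22%, 20.6% and 14.6% of genes.

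**Figure D2:**
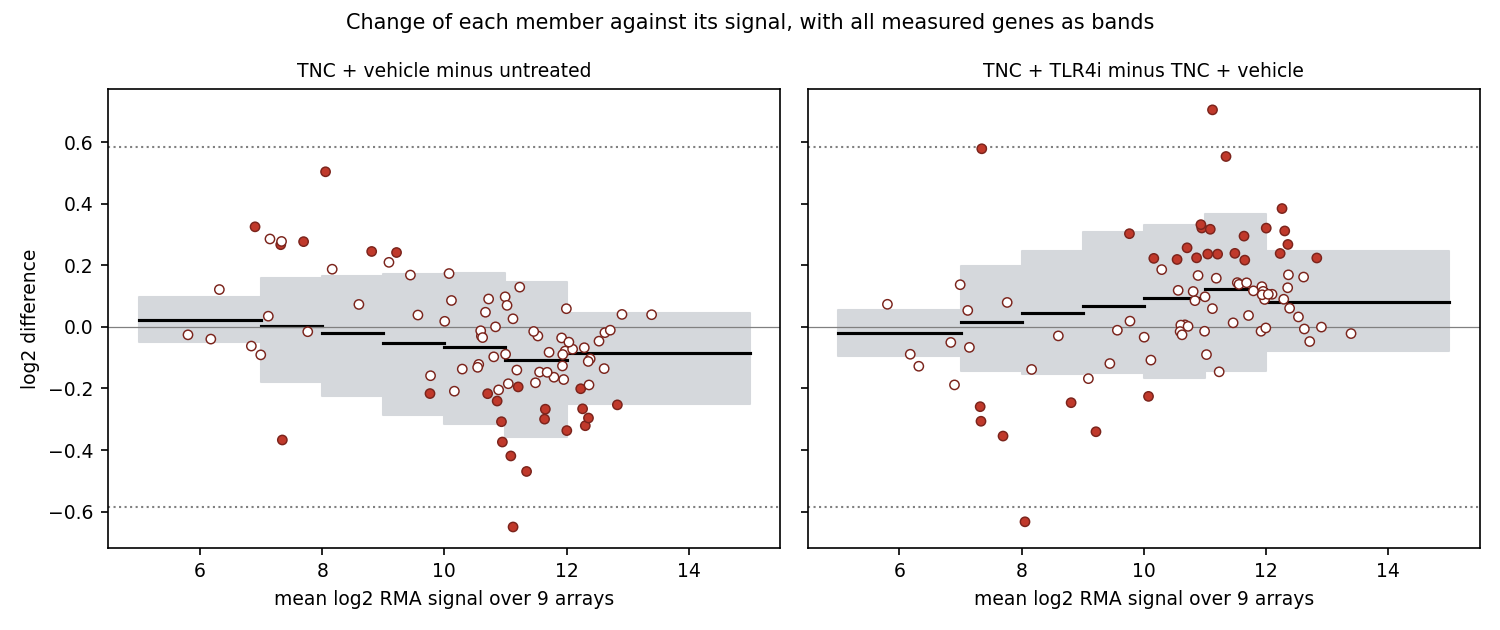
Log2 difference of each member (circles, red where it passed) against its mean log2 RMA signal over 9 arrays, for both contrasts with TNC + vehicle; black lines and grey bands give the median and the middle 50% of all genes in each band of signal, and dotted lines mark 1.5-fold. Most members lie inside the grey bands, and the median of all genes falls below 0 in the bright bands on the left and rises above 0 on the right.

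The lean of the whole set depended on how the arrays were scaled. After cyclic loess between arrays, which evens out differences that follow signal level, the members' median was -0.00 in both contrasts with TNC + vehicle. Then 10 members rose and 9 fell with TNC, in place of 6 and 18, and 8 rose and 10 fell with the inhibitor, in place of 22 and 7. Over all genes in the same scaling, 13.7% rose and 14% fell with TNC, against 11.6% and 10.5% of members, and 14.1% rose and 13.5% fell with the inhibitor, against 9.3% and 11.6%. Of the 18 members that fell with TNC, 9 also did so after cyclic loess, namely Ndufa6, Atp5g2, Ndufb5, Ndufa7, Ndufaf7, Ndufb11, Cox7a2l, Ndufv3 and Uqcrh, and all 6 that rose did. Of the 22 that rose with the inhibitor, 8 also did so after cyclic loess (Ndufa6, Atp5g2, Atp5c1, Ndufaf7, Ndufa7, Ndufb5, Ndufb11 and Ndufv3), as did all 7 that fell. The rises of Ndufs7, Ndufs8, Ndufv2, Ndufa8, Ndufb3, Ndufb8, Ndufb9, Ndufb10, Ndufc2, Uqcrh, Uqcrfs1, Cox4i1, Cox7a2l and Atp5d did not pass there. Medians of all genes stayed within 0.02 of 0 in both scalings.

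Complex I is the largest complex of the chain, built from a core that carries out the electron transfer and from many accessory subunits. Of its 34 subunit genes, 10 fell and 1 rose with TNC, against 16.0% and 12.1% of all genes. Their median was -0.13. With the inhibitor 14 rose and 1 fell, against 17.1% and 11.4% of all genes, with a median of 0.12. In the bands of signal from 10 to 11 and 11 to 12, 33.9% and 36.5% of genes fell with TNC. There, 35.8% and 39.6% rose with the inhibitor. Within the core, Ndufs7 fell with TNC, by 0.22 (SE 0.07, limma adjusted p = 0.0338). It was the 1 of 6 core genes to pass, each read from its brightest probe set. It lay at 10.75, 10.81 and 10.75 in untreated, 10.49, 10.54 and 10.62 in TNC + vehicle, and 10.83, 10.79 and 10.80 in TNC + TLR4i. Ndufs7, Ndufs8 and Ndufv2, which carry iron-sulfur clusters, rose with the inhibitor, by 0.26, 0.24 and 0.24, none of which passed after cyclic loess. A further Ndufs8 probe set, of mean signal 11.17, passed with TNC at -0.29 (limma adjusted p = 0.00529). The brightest Ndufs8 probe set gave -0.18 (limma adjusted p = 0.0923), and the rest did not pass with TNC.

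Ndufa6 showed the largest fall of any member. It codes for an accessory subunit of the matrix arm that binds the mitochondrial acyl carrier protein. Its signal was 11.47, 11.26 and 11.24 in untreated, 10.80, 10.55 and 10.67 in TNC + vehicle, and 11.42, 11.39 and 11.32 in TNC + TLR4i arrays. All 3 TNC + vehicle arrays were below every other array. The difference was -0.65 (SE 0.09), or 1.57-fold lower, with TNC (limma adjusted p = 0.000155). Against TNC + vehicle it was 0.71 (SE 0.08), or 1.63-fold higher, with the inhibitor (limma adjusted p = 2.65e-05). Only 1 probe set reports this gene.

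The partner of that subunit, the acyl carrier protein gene Ndufab1, did not pass, at 10.90, 11.04 and 10.86 in untreated and 11.05, 10.98 and 11.07 in TNC + vehicle. Ndufb5, an accessory subunit of the membrane arm, fell by 0.42 (SE 0.07) with TNC (limma adjusted p = 0.000594), from 11.27, 11.28 and 11.23 to 10.91, 10.84 and 10.78. Its signal with the inhibitor was 11.13, 11.09 and 11.26, again above all TNC + vehicle arrays. The other probe set of Ndufb5 gave -0.34 and 0.40 in the contrasts with untreated and with the inhibitor. Ndufb11, also of the membrane arm, fell by 0.34 (SE 0.07), and its other probe sets gave -0.47 and -0.29.

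For Ndufa7, an accessory subunit of the matrix arm, the probe sets differed. The brightest went from 11.07, 11.04 and 11.16 in untreated to 10.72, 10.68 and 10.75 in TNC + vehicle, a difference of -0.37 (SE 0.07, limma adjusted p = 0.00137), and lay at 11.04, 11.02 and 11.06 with the inhibitor. The other 4 probe sets gave differences from -0.24 to 0.01 with TNC, of which 1 passed (adjusted p = 0.0302). Ndufv3, a small subunit of the NADH-binding part, fell by 0.31 (SE 0.06) with TNC and rose by 0.33 (SE 0.07) with the inhibitor. Over the 44 members with at least 2 probe sets above the array median, 52 of 70 further probe sets had the sign of the brightest with TNC, 51 of 70 with the inhibitor and 38 of 70 in TNC + TLR4i against untreated.

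Ndufb1, a small accessory subunit of the membrane arm, was the 1 complex I subunit to rise with TNC. The signals were 7.96, 8.07 and 7.76 in untreated, 8.36, 8.54 and 8.40 in TNC + vehicle, and 7.75, 7.94 and 7.71 in TNC + TLR4i arrays. The TNC + vehicle arrays were the 3 highest. The rise was 0.50 (SE 0.09, limma adjusted p = 0.00127), and the fall with the inhibitor was 0.63 (SE 0.08, limma adjusted p = 0.000101). The brightest accessory subunit, Ndufa1, did not pass in any contrast, with differences of -0.11, 0.13 and 0.02.

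**Figure D3:**
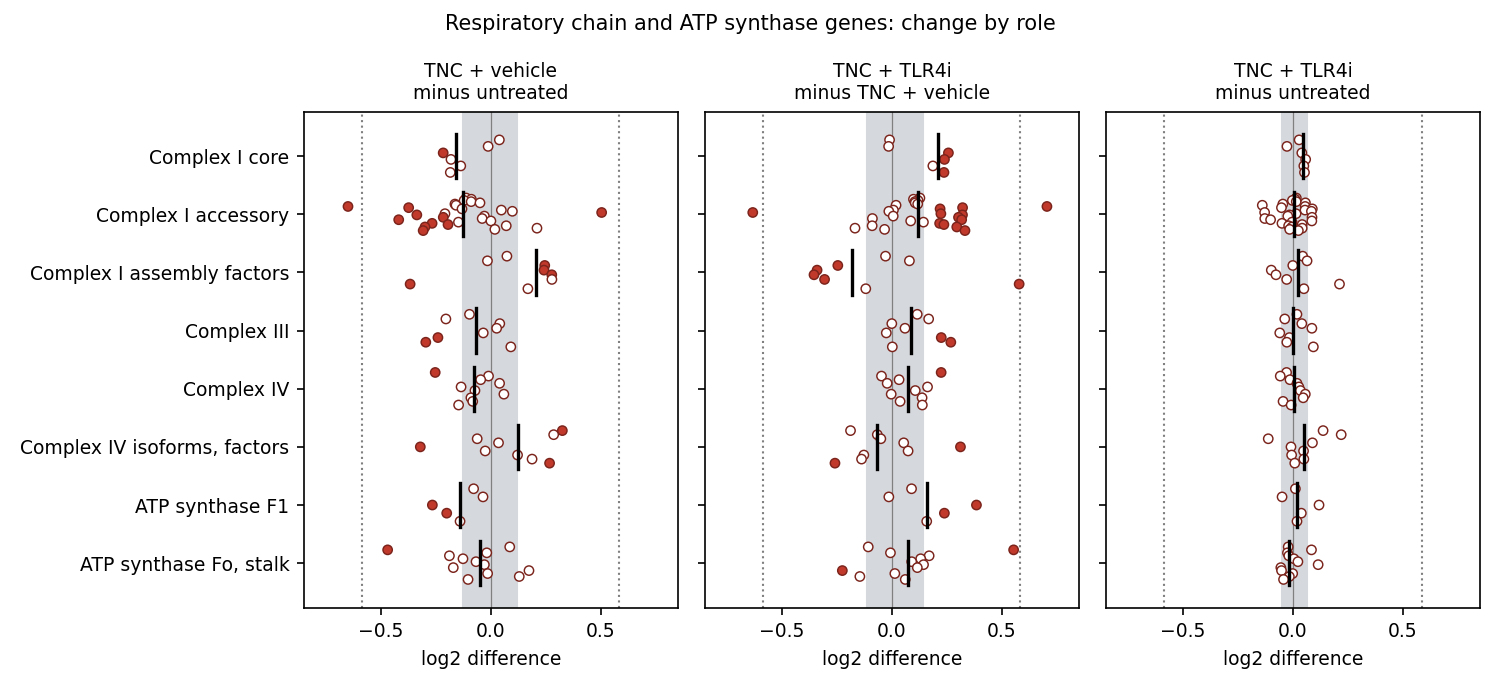
Log2 difference of each member (circles, red where it passed) by role for the 3 contrasts, with the role's median (black bar), the middle 50% of all genes (grey band), 0 (line) and 1.5-fold (dotted lines). Medians of complex I subunits lie left of 0 with TNC and right of it with the inhibitor, those of its assembly factors on the other side, and all members crowd around 0 in TNC + TLR4i against untreated.

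Assembly factors of complex I had a positive median with TNC. These proteins help to build the complex and are not part of it when finished. Of 8, 3 rose with TNC (Ndufaf3, Ndufaf4 and Ndufaf5) and 1 fell (Ndufaf7), with a median of 0.21, and 4 fell and 1 rose with the inhibitor, with a median of -0.18. Over all genes, 12.1% rose and 16.0% fell with TNC, and 11.4% fell and 17.1% rose with the inhibitor. The assembly factors were dimmer, with a median signal of 8.10 in untreated replicate 1, against 10.92 for the complex I subunits. The difference between assembly factors and subunits was not tested. The gene for Ndufaf5, which hydroxylates an arginine of Ndufs7, went from 7.70, 7.60 and 7.59 to 7.94, 7.88 and 7.89, and lay at 7.49, 7.65 and 7.51 with the inhibitor. Its rise was 0.28 (SE 0.07, limma adjusted p = 0.00901) and its fall 0.35 (SE 0.07, limma adjusted p = 0.00269).

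Ndufaf3 and Ndufaf4, which act together early in assembly, rose by 0.25 (SE 0.07) and 0.24 (SE 0.07) with TNC and fell by 0.25 and 0.34 with the inhibitor. Their calls with TNC were weak, with limma adjusted p = 0.027 and 0.0243, and each was lost when single arrays were left out, at differences of 0.20 and 0.21 without untreated replicate 1. Ndufaf6 had a difference of 0.28 (adjusted p = 0.0617) with TNC and fell by 0.31 (adjusted p = 0.0147) with the inhibitor, by limma. Ndufaf8, whose probe set was the brightest of these, did not pass, at 0.17 and -0.12.

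Ndufaf7, a mitochondrial methyltransferase, was the exception among the assembly factors. It went from 7.37, 7.43 and 7.40 in untreated to 7.01, 6.87 and 7.22 in TNC + vehicle and to 7.53, 7.75 and 7.55 in TNC + TLR4i. These groups did not overlap in any of the 3 contrasts. The fall with TNC was 0.37 (SE 0.09, limma adjusted p = 0.00885), the rise with the inhibitor was 0.58 (SE 0.10, limma adjusted p = 0.000725), and the difference left against untreated was 0.21 (SE 0.07, limma adjusted p = 0.408).

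In complex III, 2 of 8 genes fell with TNC and rose with the inhibitor, where 16.0% and 17.1% of all genes did. Its medians, -0.07 and 0.09, were close to those of all members. Uqcrh, its hinge protein, and Uqcrfs1, its Rieske iron-sulfur protein, fell with TNC, by 0.30 (SE 0.06) and 0.24 (SE 0.08), and rose by 0.27 and 0.22 with the inhibitor, while the other 6 of 8 genes did not pass. Uqcrh lay at 12.51, 12.42 and 12.47 in untreated, 12.20, 12.13 and 12.19 in TNC + vehicle, and 12.44, 12.43 and 12.45 in TNC + TLR4i, with the TNC + vehicle arrays lowest. Uqcrb, the brightest, differed by 0.04 (SE 0.06) with TNC and by -0.00 (SE 0.07) with the inhibitor.

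Among the 10 general subunits of complex IV, Cox4i1 was the 1 to pass, lower with TNC and higher with the inhibitor. Over all genes, 16.0% fell with TNC and 17.1% rose with the inhibitor. It is the regulatory subunit found in most tissues. The signal was 12.92, 12.89 and 12.97 in untreated, 12.71, 12.67 and 12.64 in TNC + vehicle, and 12.87, 12.90 and 12.92 with the inhibitor, with no overlap between TNC + vehicle and the rest. The fall was 0.25 (SE 0.06, limma adjusted p = 0.0131), which did not pass without untreated replicate 3 (-0.23) or after cyclic loess (-0.15). Cox6a1, the brightest of all 86 members, lay between 13.30 and 13.45 in all 9 arrays, with differences of 0.04, -0.02 and 0.02 (SE 0.06 to 0.07).

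Isoforms of complex IV could be followed within each family, each probe set against itself. Cox4i2, the isoform tied to low oxygen and to lung, rose by 0.33 (SE 0.07, limma adjusted p = 0.00464) with TNC, from 6.76, 6.80 and 6.69 to 6.99, 7.10 and 7.13, and had a difference of -0.19 (adjusted p = 0.0861) with the inhibitor. This is a dim signal, close to the median of all probe sets. Cox6a2, the heart and muscle isoform, had a difference of 0.29 (limma adjusted p = 0.0831), with overlapping groups. Cox6b1, Cox6b2, Cox7a1, Cox7a2, Cox7b2, Cox8a, Cox8b and Cox8c did not pass in any contrast, with differences between -0.14 and 0.19. None of 8 muscle markers passed either.

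Cox7a2l is known for a role in joining complexes III and IV into supercomplexes, which was not measured in these cells. It fell by 0.32 (SE 0.07, limma adjusted p = 0.0078) with TNC and rose by 0.31 (SE 0.07) with the inhibitor. Its arrays read 12.50, 12.37 and 12.39 in untreated, 12.20, 12.00 and 12.09 in TNC + vehicle, and 12.45, 12.38 and 12.39 in TNC + TLR4i. All 3 of its probe sets passed in both contrasts, with -0.36 for each of the other 2 with TNC.

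Ndufa4 and its paralogs form a family of their own. Ndufa4, first assigned to complex I and now counted with complex IV, had a difference of -0.15 (SE 0.06, limma adjusted p = 0.123) with TNC, at 11.63, 11.58 and 11.62 in untreated and 11.47, 11.45 and 11.48 in TNC + vehicle, without overlap. Ndufa4l2, a hypoxia-inducible paralog, rose by 0.27 (SE 0.07, limma adjusted p = 0.0196) and fell by 0.26 with the inhibitor, and lost its call without untreated replicate 1 (0.25) among others. AA467197, also known as Nmes1, lies outside the rule and codes for a paralog that can take the place of Ndufa4 in complex IV. It rose from 6.17, 6.21 and 6.16 to 7.61, 6.77 and 7.36 with TNC and lay at 6.19, 6.19 and 6.28 with the inhibitor. The rise was 1.07 (SE 0.16), or 2.10-fold, with limma adjusted p = 0.000421, and the fall with the inhibitor was 1.03 (limma adjusted p = 0.00045). The 3 TNC + vehicle arrays differed among themselves, with an SD of 0.43, and its untreated signal lay under the median of all probe sets, where RMA understates folds.

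**Figure D4:**
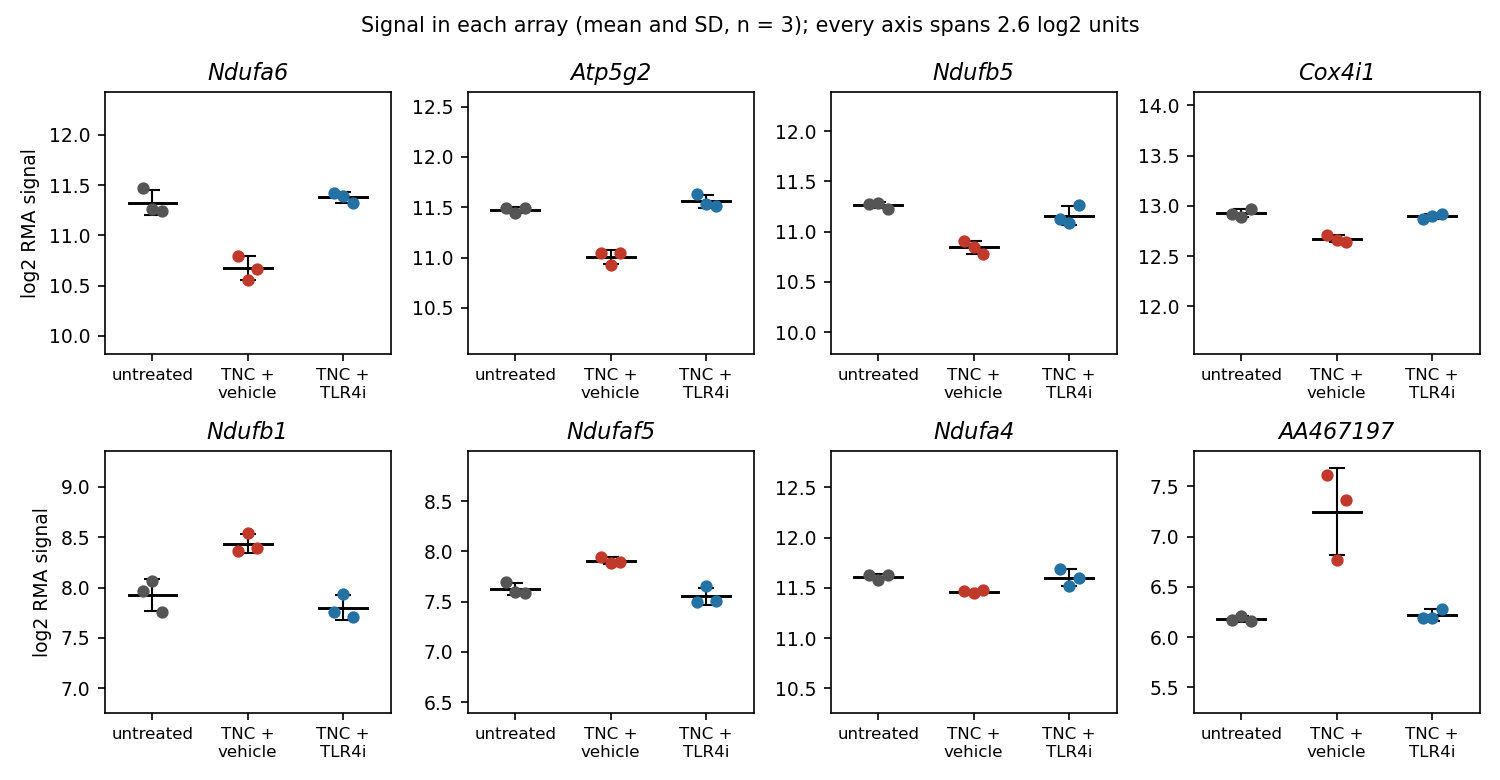
Log2 RMA signal in each array for 7 members and AA467197, with the mean (bar) and SD (whiskers, n = 3) of each group; every axis spans the same range and levels of different genes are not to be compared. TNC + vehicle arrays are lowest for Ndufa6, Atp5g2, Ndufb5, Cox4i1 and Ndufa4 and highest for Ndufb1, Ndufaf5 and AA467197, and the untreated and TNC + TLR4i groups lie close together.

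ATP synthase joins a catalytic head, F1, to a proton-driven rotor, Fo. Of its 17 genes, 3 fell with TNC (Atp5g2, Atp5c1 and Atp5d) and 0 rose, where 16.0% of all genes fell and 12.1% rose. The median was -0.08, and 14 of 17 differences were below 0. The same 3 genes rose with the inhibitor, and Atp5md, a small accessory subunit, fell by 0.23. The catalytic subunits Atp5a1 and Atp5b did not pass, at -0.08 and -0.04 with TNC. A dimmer Atp5a1 probe set, of mean signal 7.75, gave 0.29 with TNC (limma adjusted p = 0.0211), and another bright one gave -0.16 without passing. Atp5c1, the central shaft of the head, lay at 12.31, 12.33 and 12.30 in untreated, 12.06, 11.98 and 12.10 in TNC + vehicle, and 12.41, 12.40 and 12.48 in TNC + TLR4i. It fell by 0.27 (SE 0.06, limma adjusted p = 0.0106) and rose by 0.38 (SE 0.07, limma adjusted p = 0.00112), and the fall did not pass after cyclic loess (-0.17).

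The subunit c genes Atp5g1, Atp5g2 and Atp5g3 encode the same mature protein of the rotor ring, and 1 of them passed. Atp5g2 lay at 11.49, 11.44 and 11.50 in untreated, 11.05, 10.92 and 11.05 in TNC + vehicle, and 11.63, 11.53 and 11.51 in TNC + TLR4i. This was a fall of 0.47 (SE 0.07, limma adjusted p = 0.000286) and a rise of 0.55 (SE 0.07, limma adjusted p = 9.44e-05). Atp5g1 had differences of 0.09 and -0.11, and Atp5g3, the brightest Fo gene, had -0.02 (SE 0.06) and -0.01 (SE 0.07), and neither passed. No test compared the fall of Atp5g2 with the values of the other subunit c genes. Its further probe sets were dim, at 6.34 and 5.75, and gave -0.02 and 0.03.

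Promoter sequences were taken from RefSeq (build GRCm38.p6), which held a window of 250 bases before to 50 after the start for 71 of the 86 members. The NRF1 motif GCGCATGCG, or CGCATGCGC on the other strand, was present in 9 of these (12.7%), against 3.10% of 14369 measured genes. NRF1 is a transcription factor known for respiratory chain genes. The ETS-type motif CCGGAAG or CTTCCGG was in 23.9% of members against 15% of measured genes, and the YY1 motif AAGATGGC or GCCATCTT in 14.1% against 4.09%. Median GC content was 58.5% in members and 58.7% in measured genes. Among members with a promoter in the table, NRF1 motifs were in 1 of the 16 that fell with TNC (Atp5g2), in 2 of the 4 that rose (Ndufaf4 and Ndufaf5) and in 6 of the 51 that did not pass. Of the same 16, 4 and 51 members, the ETS-type motif was in 1, 0 and 16, and the YY1 motif in 2, 0 and 8. A match describes letters in the window and is not evidence of binding.

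The 250 bases before the start are shown for the largest fall (Ndufa6), the subunit c gene that fell (Atp5g2), the largest rise among subunits (Ndufb1), the brightest member, which stayed level (Cox6a1), and AA467197. Each reads 5′ to 3′ along the gene, with the NRF1 motif on both strands, which overlap in a palindrome, or the ETS motif in capitals. Ndufa6 is at chr15:82354292-82354541, Atp5g2 at chr15:102671048-102671297, Ndufb1 at chr12:101975739-101975988 and Cox6a1 at chr5:115348959-115349208, all on the minus strand, and AA467197 is at chr2:122637637-122637886 on the plus strand.
Ndufa6: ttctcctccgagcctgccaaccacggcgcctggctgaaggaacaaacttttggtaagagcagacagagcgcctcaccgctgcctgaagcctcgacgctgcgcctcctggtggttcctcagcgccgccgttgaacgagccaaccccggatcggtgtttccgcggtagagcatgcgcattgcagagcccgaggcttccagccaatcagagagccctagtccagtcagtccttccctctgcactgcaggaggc
Atp5g2: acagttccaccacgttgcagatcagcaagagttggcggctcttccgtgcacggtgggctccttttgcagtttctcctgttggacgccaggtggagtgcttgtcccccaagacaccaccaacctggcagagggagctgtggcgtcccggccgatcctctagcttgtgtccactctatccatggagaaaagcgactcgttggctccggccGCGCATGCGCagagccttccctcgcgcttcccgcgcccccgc
Ndufb1: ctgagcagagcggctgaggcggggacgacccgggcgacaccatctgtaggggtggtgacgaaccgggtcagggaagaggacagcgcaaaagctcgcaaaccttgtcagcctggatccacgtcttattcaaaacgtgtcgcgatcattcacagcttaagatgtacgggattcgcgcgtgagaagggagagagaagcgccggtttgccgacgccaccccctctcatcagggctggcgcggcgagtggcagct
Cox6a1: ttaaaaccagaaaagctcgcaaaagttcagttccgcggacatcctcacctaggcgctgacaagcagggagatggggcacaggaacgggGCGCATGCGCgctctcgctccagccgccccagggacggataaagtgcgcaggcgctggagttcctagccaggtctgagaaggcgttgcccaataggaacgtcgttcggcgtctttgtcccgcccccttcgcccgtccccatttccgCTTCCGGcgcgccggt
AA467197: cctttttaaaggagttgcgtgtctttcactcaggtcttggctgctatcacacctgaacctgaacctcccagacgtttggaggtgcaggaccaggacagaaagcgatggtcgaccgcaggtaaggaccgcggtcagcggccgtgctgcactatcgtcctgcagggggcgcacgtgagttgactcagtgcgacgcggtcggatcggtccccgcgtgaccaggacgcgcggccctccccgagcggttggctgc
The first base of the NRF1 match is at position -42 from the start in Atp5g2, which fell with TNC, and at -162 in Cox6a1, which did not pass. None of the motifs searched was in the windows of Ndufa6, Ndufb1 or AA467197.

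Several genes that work with the chain passed at 1.5-fold, by the same fits. Cytochrome c, Cycs, which carries electrons from complex III to IV, rose from 11.00, 11.05 and 10.99 to 11.71, 11.91 and 11.75 with TNC and lay at 10.97, 10.87 and 11.04 with the inhibitor. The rise was 0.78 (SE 0.07), or 1.71-fold, with limma adjusted p = 8.67e-06, and the fall was 0.83 (limma adjusted p = 6.9e-06). It was the only 1 of 6 genes of complex II and the cytochromes c to pass. The mitochondrially encoded complex I subunit ND5, the 1 such gene with a probe set of its own, lay at 13.01, 12.73 and 12.85 in untreated and 12.63, 12.57 and 12.49 in TNC + vehicle. It fell by 0.30 (SE 0.08, limma adjusted p = 0.0184), and had a difference of 0.16 (adjusted p = 0.132) with the inhibitor, at 12.82, 12.69 and 12.68.

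Of 40 other assembly factors, 8 rose and 7 fell with TNC, with a median of 0.06, where 12.1% of all genes rose and 16.0% fell. At 1.5-fold, 3 rose, all of complex IV. Cox18, which inserts a core subunit into the membrane, went from 8.53, 8.63 and 8.55 to 9.43, 9.46 and 9.49, a rise of 0.89 (SE 0.07, limma adjusted p = 1.24e-06). Coa5 rose by 0.81 (SE 0.07) and Sco1, which delivers copper, by 0.64 (SE 0.08). With the inhibitor these 3 fell by 0.99, 0.81 and 0.59.

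Of 17 regulators of mitochondrial biogenesis, 5 rose and 2 fell with TNC, where 12.1% of all genes rose and 16.0% fell. Ppargc1b, a coactivator of mitochondrial genes, rose by 0.69 (SE 0.08), from 8.37, 8.59 and 8.55 to 9.16, 9.12 and 9.31, and lay at 8.26, 8.36 and 8.23 with the inhibitor. Its partner receptor Esrra rose by 0.65 (SE 0.08), from 9.22, 9.15 and 9.03 to 9.69, 9.83 and 9.84, and lay at 9.10, 9.14 and 9.16 with the inhibitor. In both genes the TNC + vehicle arrays were the 3 highest.

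In the TCA cycle, which feeds the chain with NADH and succinate, 5 of 13 genes fell and 1 rose with TNC, where 16.0% of all genes fell and 12.1% rose. Fh1, the fumarase, fell by 0.96 (SE 0.07, limma adjusted p = 1.1e-06) and Idh3g, a subunit of the NAD-dependent isocitrate dehydrogenase, by 0.62 (SE 0.07), the 2 falls beyond 1.5-fold. Among 8 carriers and coupling proteins, 3 fell and 1 rose with TNC, with none at 1.5-fold. Of 76 mitochondrial ribosome genes (symbols starting with Mrpl or Mrps), 18 rose and 13 fell with TNC, against 12.1% and 16.0% of all genes. Their median was 0.03, and 18 of the 86 members were lower and 6 higher. These ribosome genes were dimmer, with a median signal of 9.29 in untreated replicate 1, against 11.04 for the members.

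Array by array, the members moved little as a set. The median over members of the signal minus its mean over 9 arrays was 0.02 to 0.04 in untreated, -0.08 to -0.04 in TNC + vehicle and 0.01 to 0.04 in TNC + TLR4i arrays. TNC + vehicle replicate 1, in which the endothelial markers were high, had -0.04, the value of its group nearest to 0. Without that array, 15 members fell and 5 rose with TNC, with a median of -0.07, and 18 rose and 5 fell with the inhibitor. Without untreated replicate 1, in contrast, 11 fell and 3 rose with TNC. For the inhibitor contrast, 13 rose without TNC + TLR4i replicate 1 and 3 fell without TNC + TLR4i replicate 3. Leaving out TNC + vehicle replicate 3 gave 4 falls there, and leaving out TNC + TLR4i replicate 3 also gave 14 rises. Each of these fits also held fewer arrays, and the cause of the lower counts was not tested.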

How the data were processed

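Total RNA of 9 BMDM samples was hybridized to Affymetrix mouse 3′ expression arrays. Raw arrays were RMA normalized (robust multiarray average) with Chipster by the authors, who deposited the resulting log2 signals. This normalization gives all arrays the same distribution and sets a floor under dim probe sets, so folds of weakly expressed genes are understated, and the number of arrays limits the precision. Of 45101 probe sets, 64 array controls were left out. The annotation gave 34945 of the remaining 45037 exactly 1 gene, 932 several genes and 9160 none. Each gene was read from its single-gene probe set with the highest mean over 9 arrays, and the 86 members held 170 probe sets.

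Each contrast was fitted to its own 6 arrays by lmFit and eBayes of limma 3.58.1 under R 4.3.3, two-sided, with Benjamini-Hochberg adjustment over 45037 probe sets. The fit was tested on simulated data. The members, roles, pathway and marker lists were chosen with earlier results of these data known, so lists are described by counts and medians without a test. Genes were named by rule: per contrast the 5 largest rises and 5 largest falls among members that passed, the brightest member of each role, the complex IV isoform families, and genes of other pathway lists that passed at 1.5-fold. Other genes were named after their values were seen. Alternatives were cyclic loess, trend and robust settings, 1 fit over 9 arrays, removal of dim probe sets, a block for the replicate number, averaging all probe sets of a gene, thresholds of adjusted p under 0.01 or at least 1.5-fold, and leaving out each array.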

Additional observations from a re-analysis of the deposited data

How the results depend on the processing

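No value changed direction past its threshold under any alternative, and 0 members passed in TNC + TLR4i against untreated in all of them. For members higher and lower with TNC (6 and 18), the counts were 10 and 9 after cyclic loess, 3 and 9 at an adjusted p under 0.01, and 0 and 1 at 1.5-fold, and 29 were lower with trend and robust settings. For members higher and lower with the inhibitor against TNC + vehicle (22 and 7), 8 were higher after cyclic loess, 11 and 3 at an adjusted p under 0.01, and 1 and 1 at 1.5-fold. Cyclic loess moved the members' medians to -0.000964 with TNC and -0.00300 with the inhibitor, and averaging a gene's probe sets moved them to -0.033 (from -0.07) and 0.046 (from 0.09). By construction, stricter thresholds lower counts, and the cause of the other changes was not tested. Leaving out 1 array gave 3 to 7 higher and 11 to 15 lower members with TNC, the lowest of each without untreated replicate 1. For the inhibitor it gave 13 to 18 higher, the lowest without TNC + TLR4i replicate 1 and 14 without replicate 3, and 3 to 6 lower, the lowest without TNC + TLR4i replicate 3 and 4 without TNC + vehicle replicate 3. Calls of Ndufaf3, Ndufaf4, Ndufa4l2 and Cox4i1 with TNC, and of Ndufaf3, Ndufaf6, Ndufa4l2, Cox4i1 and Ndufs8 with the inhibitor, were lost without at least 1 array. Replicate numbers are shared between groups, but same-numbered arrays did not deviate together throughout, so they were not taken as pairs. Their correlations ran from -0.098 to 0.215, against -0.191 to 0.121 between differently numbered arrays. Those of replicate 1 were 0.087 to 0.097 and those of replicate 3 were -0.088 to -0.015. A replicate block gave 6 higher and 13 lower with TNC, and 20 and 7 with the inhibitor. Dim probe sets have only a floor, which limits what the isoform genes can show.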
